A study of Mus musculus with 8 samples.

Results

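The Hedgehog pathway genes described here are 9 genes that carry the signal from the cell surface to the nucleus. They are the co-receptors *Gas1*, *Boc* and *Cdon*, the receptor *Ptch1*, the signal transducer *Smo*, the secreted-ligand antagonist *Hhip*, and the transcription factors *Gli1*, *Gli2* and *Gli3*. They were chosen by name, with each Ensembl identifier paired with its mouse symbol, and all 9 were found among the 54532 identifiers in the data. All 9 also passed the filter on low counts that kept 22544 genes for testing. The samples were 8 primary pericyte cultures from brains of WT (wild-type) mice. TGF-β1 at 5 μg/mL was given to 4 of them and vehicle to the other 4, both for 48 h, and their bulk RNA was sequenced. The labels do not give strain, age or sex of the mice, and the study's general statement on its animals, adult males, is not tied to these cultures. The methods speak of isolates that received both vehicle and TGF-β1, but the labels do not say which cultures share an isolate, so the cultures were compared as independent. The cells had been grown out of digested brain tissue and passaged, so they are not pericytes in their vessel. The question of the comparison was what TGF-β1 signalling changes in these cells.

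Each culture had 45255235 to 47651397 counts, and the totals of the groups overlapped (exact two-sided permutation test, p = 0.857, 4 against 4). Of 10 pericyte markers, *Pdgfrb* (202 CPM in vehicle, where CPM is the count scaled to a common library size) and *Cspg4* (82.9 CPM) were clearly present, but *Kcnj8* had 0 to 2 counts per culture, *Abcc9* 0 to 9 and *Vtn* 2 to 6. The summed level of the 10 was 414 to 434 CPM in the vehicle and 569 to 591 CPM in the TGF-β1 cultures, but the markers were divided: *Pdgfrb* and *Cspg4* were higher, *Rgs5* (8.62 to 2.13 CPM) and *Anpep* (40.5 to 30.1 CPM) lower, 3 were not called and 3 not tested. Among markers of other cells, the sum of 6 fibroblast genes was 7180 to 7500 CPM with vehicle and 10100 to 10700 CPM with TGF-β1, nearly all of it *Fn1* and *Col1a1*, which were higher, whereas *Dcn* and *Dpt* were lower, *Pdgfra* was not called and *Lum* not tested. The sum of 5 leptomeningeal genes was 444 to 461 CPM with vehicle and 340 to 368 CPM with TGF-β1, with 3 lower and 2 not tested. The 4 smooth muscle genes summed to 694 to 765 CPM and 704 to 742 CPM, nearly all of it *Acta2* (731 and 715 CPM, not called). *Cnn1* was called higher (1.9 to 2.44 CPM), whereas *Myh11* (1.1 to 0.79 CPM) and *Tagln* (1.47 to 1.84 CPM) were not called. The 6 endothelial genes summed to 471 to 484 CPM and 472 to 498 CPM, most of it *Cdh5* (375 and 367 CPM) and *Flt1* (81.7 and 99.2 CPM), while *Pecam1* was at 1.11 CPM and *Cldn5* had 0 to 10 counts. Of these, *Flt1* was called higher and *Tek* lower (2.71 to 1.99 CPM). *Cdh5*, *Kdr* and *Pecam1* were not called and *Cldn5* was not tested. The sums of 4 lists were low but higher in all TGF-β1 cultures, at 14.9 to 16.1 and 23.4 to 26.4 CPM for astrocytes, 4.23 to 5.37 and 8.82 to 11.7 CPM for neurons, 8.03 to 8.93 and 9.3 to 11 CPM for microglia and macrophages, and 3.86 to 5.07 and 5.15 to 5.7 CPM for oligodendrocytes. Among the astrocyte genes 2 were called higher (*Slc1a3* and *Aldh1l1*). In each of the others only 1 gene was called, namely *Tubb3* (2.11 to 7.91 CPM) for neurons, *Csf1r* for microglia and macrophages and *Mbp* for oligodendrocytes. All sums except those of smooth muscle and endothelial genes thus differed between the groups without overlap, along with the genes below, and their part in these results was not tested. In bulk RNA, fewer cells of a type and less RNA per cell cannot be told apart. Of 8 genes commonly raised by TGF-β, 7 were higher in the TGF-β1 cultures and *Tgfbi* was lower (log2 fold change −1.5).

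Hedgehog ligands are secreted, lipid-modified proteins that bind Patched on the receiving cell. Unbound Patched holds Smoothened inactive, and binding of the ligand lets Smoothened act in the primary cilium and keeps the Gli proteins from being cut into repressors or degraded. *Gli2* is the main activator and *Gli3* the main repressor, whereas *Gli1*, *Ptch1* and *Hhip* are themselves transcribed in answer to the signal and serve as its classical readouts. *Ptch1* and *Hhip* feed back negatively, and *Gas1*, *Boc* and *Cdon* help present the ligand to Patched. In several organs *Gli1* marks mesenchymal cells that lie around vessels.

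The promoter windows of 3 members that changed are shown because 2 of them, *Ptch1* and *Hhip*, are readouts that rose, and *Gli2* fell. Each is the RefSeq window from 250 bases before to 50 bases after an annotated start on GRCm38.p6, written 5′ to 3′ on the gene's strand, which is the minus strand for all 3. The windows lie at chr13:63565686-63565985 for *Ptch1* (around a start inside the longer GENCODE gene), at chr8:80057959-80058258 for *Hhip* and at chr1:119053570-119053869 for *Gli2*. Capitals mark matches of the short Smad box on either strand (CAGAC or its reverse complement GTCTG).
Ptch1: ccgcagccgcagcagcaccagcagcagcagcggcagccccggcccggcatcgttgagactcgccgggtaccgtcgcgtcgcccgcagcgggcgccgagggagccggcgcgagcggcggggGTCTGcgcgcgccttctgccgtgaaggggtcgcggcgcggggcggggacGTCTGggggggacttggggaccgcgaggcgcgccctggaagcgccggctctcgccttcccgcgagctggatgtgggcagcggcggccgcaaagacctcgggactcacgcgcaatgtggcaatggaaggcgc
Hhip: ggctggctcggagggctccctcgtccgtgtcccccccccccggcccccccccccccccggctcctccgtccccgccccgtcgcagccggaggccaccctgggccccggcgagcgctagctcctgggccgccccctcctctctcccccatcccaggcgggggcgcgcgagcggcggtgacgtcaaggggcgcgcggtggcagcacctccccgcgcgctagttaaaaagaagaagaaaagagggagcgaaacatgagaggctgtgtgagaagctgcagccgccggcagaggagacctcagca
Gli2: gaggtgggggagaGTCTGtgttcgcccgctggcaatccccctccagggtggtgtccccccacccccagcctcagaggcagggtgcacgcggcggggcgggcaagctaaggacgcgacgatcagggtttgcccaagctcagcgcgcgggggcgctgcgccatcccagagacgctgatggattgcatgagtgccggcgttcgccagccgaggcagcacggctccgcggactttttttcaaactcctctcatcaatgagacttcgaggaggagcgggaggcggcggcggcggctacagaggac

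Both strands of the windows of 7 members with an entry in the table were searched for the Gli consensus GACCACCCA, its 7-letter part CCACCCA, which lies inside it, the Smad palindrome GTCTAGAC and the Smad box CAGAC. Of all 32851 windows of the same length, 0.253% held the Gli consensus, 9.3% its 7-letter part, 0.213% the palindrome and 49.6% the Smad box. None of the 7 windows held the first 3 of these motifs. *Gli1* and *Boc* had no entry, so their promoters were not searched. The Smad box was found 2 times in the *Ptch1* window, at 130 and 81 bases before the start (positions −130 and −81). It was found 1 time each in the windows of *Gli2* (−237), *Gli3* (−125), *Smo* (−105) and *Cdon* (37 bases after the start), and in neither the *Hhip* nor the *Gas1* window. The *Cdon* window (chr9:35451826-35452125), like that of *Ptch1*, is around a start inside the longer GENCODE gene, which begins at 35421128 for *Cdon*. A match of letters is a description of the window and not a binding site.

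Of the 9 genes, 3 were higher in the TGF-β1 cultures (*Hhip*, *Ptch1* and *Gli1*), 4 were lower (*Boc*, *Gli2*, *Smo* and *Gli3*) and 2 did not pass the test (*Gas1* and *Cdon*; edgeR quasi-likelihood test, Benjamini-Hochberg adjusted p under 0.05 over all 22544 genes). Thus 77.8% of the members were called, where 41.3% of all genes tested were called, 20.9% higher and 20.3% lower. The shares over all genes take in genes of low level. Of the 22544 genes 16494 had a mean of at least 1 CPM, as all 9 members had. Shares matched for level were not computed. For 6 members the groups did not overlap in CPM, which held for 37.9% of all genes. The median log2 fold change of the 9 was 0.00 and that of all genes tested −0.01. The 3 that rose are the 3 classical readouts, and the genes that fell include both other Gli factors, although the call of *Gli3* depended on single cultures.

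**Figure D1:**
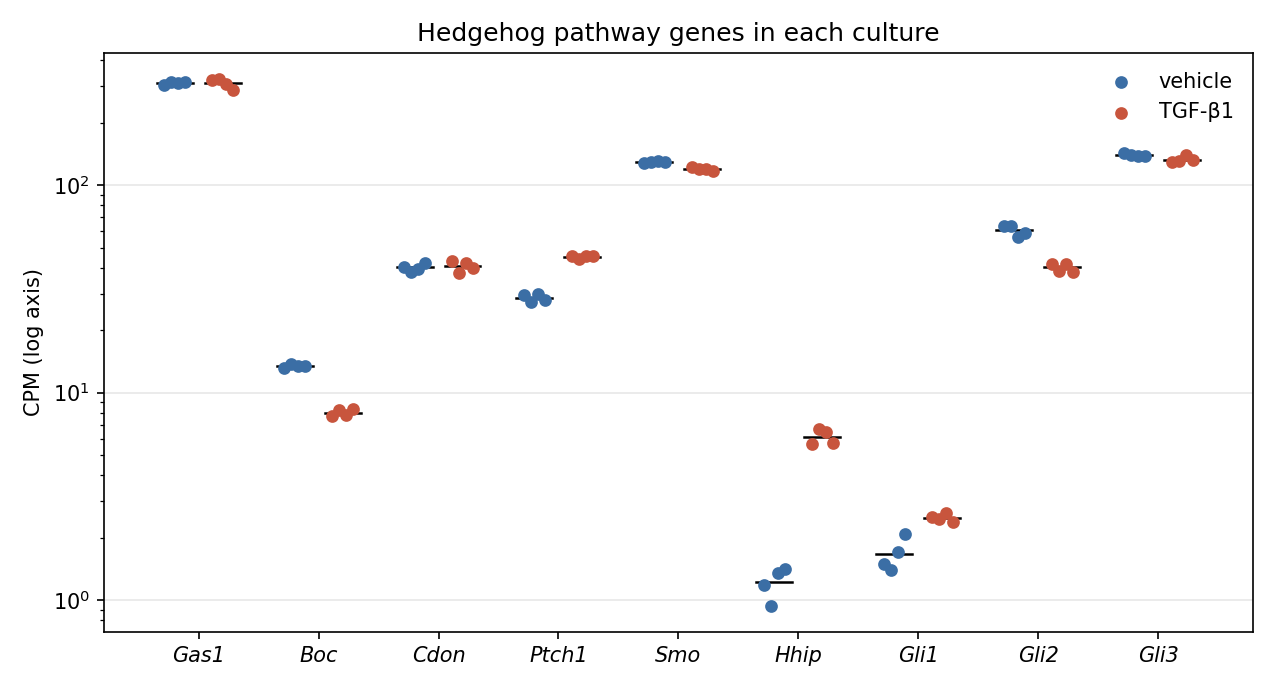
CPM of each of the 9 Hedgehog pathway genes in the 4 vehicle and the 4 TGF-β1 cultures. Points are cultures and the bars mark their mean. *Hhip*, *Ptch1* and *Gli1* lie higher and *Boc*, *Gli2* and *Smo* lower in all 4 TGF-β1 cultures than in any vehicle culture.

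*Hhip* encodes a membrane-bound or shed protein that binds Hedgehog ligands and keeps them from Patched. It had the largest change of the 9. Its level was 1.19, 0.943, 1.35 and 1.41 CPM in vehicle cultures 1 to 4, and 5.67, 6.66, 6.48 and 5.72 CPM in TGF-β1 cultures 5 to 8. All TGF-β1 values lay far above all vehicle values, and the groups did not overlap. The mean rose 5-fold from 1.22 ± 0.207 to 6.14 ± 0.510 CPM (SD, n = 4 each), a log2 fold change of 2.32 ± 0.13 (SE; 95% interval 2.06 to 2.58; edgeR adjusted p = 1.36e-19). It rested on 43 to 65 counts per vehicle culture and 260 to 306 per TGF-β1 culture. Among the 16494 genes tested with a mean of at least 1 CPM, *Hhip* ranked 62 by the size of its log2 fold change. The gene (ENSMUSG00000064325) lies on the minus strand of chromosome 8 at 79965851 to 80058006 (GRCm38).

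*Ptch1*, the receptor, which is also a transcription target of its own pathway, was at 29.7, 27.2, 30.0 and 27.9 CPM with vehicle and at 45.6, 43.9, 45.4 and 45.3 CPM with TGF-β1. The groups lay far apart, and the cultures within each were close to one another. The mean rose 1.57-fold, from 28.7 ± 1.34 to 45.1 ± 0.803 CPM (log2 fold change 0.65 ± 0.04, SE; 95% interval 0.57 to 0.73; edgeR adjusted p = 3.85e-18). The gene (ENSMUSG00000021466) lies on the minus strand of chromosome 13 at 63508328 to 63573598.

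*Gli1*, the amplifying activator whose transcript is the usual readout of the pathway, was low in all cultures. It was at 1.5, 1.4, 1.7 and 2.08 CPM with vehicle and at 2.51, 2.46, 2.64 and 2.38 CPM with TGF-β1. The 4 TGF-β1 values were close together and the vehicle values more spread, with vehicle culture 4 nearest to the TGF-β1 group, and the groups did not overlap. The mean rose 1.49-fold from 1.67 ± 0.300 to 2.50 ± 0.108 CPM (log2 fold change 0.58 ± 0.15, SE; 95% interval 0.28 to 0.88; edgeR adjusted p = 0.00137). Counts were 64 to 96 with vehicle and 112 to 121 with TGF-β1. The gene (ENSMUSG00000025407) lies on the minus strand of chromosome 10 at 127329882 to 127341974, and 6.55% of its exonic bases overlap genes on the other strand, of which *Arhgap9* had 1 to 8 counts per culture and *Gm47200* none in any culture.

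*Gli2*, the main activator at the end of the pathway, went the other way. It was at 63.5, 63.2, 56.4 and 58.9 CPM with vehicle and at 41.7, 38.6, 41.7 and 38.3 CPM with TGF-β1. The highest TGF-β1 value was well under the lowest vehicle value. The mean fell from 60.5 ± 3.45 to 40.1 ± 1.90 CPM, a change of −33.7% (log2 fold change −0.59 ± 0.04, SE; 95% interval −0.67 to −0.51; edgeR adjusted p = 1.57e-16). The gene (ENSMUSG00000048402) lies on the minus strand of chromosome 1 at 118834132 to 119053619.

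*Gli3*, whose cut form is the main repressor, differed little. It was at 143, 139, 138 and 138 CPM with vehicle and at 129, 130, 139 and 132 CPM with TGF-β1. TGF-β1 culture 7 reached the level of the vehicle cultures, so the groups overlapped. The mean moved from 139 ± 2.48 to 132 ± 4.32 CPM, a change of −5.13% (log2 fold change −0.08 ± 0.03, SE; 95% interval −0.13 to −0.02; edgeR adjusted p = 0.0194). The call was lost when vehicle culture 1 was left out (log2 fold change −0.06, edgeR adjusted p = 0.113). It was also lost without TGF-β1 culture 5, 6 or 8, with a log2 fold change of −0.07 each (edgeR adjusted p = 0.0604, edgeR adjusted p = 0.0619 and edgeR adjusted p = 0.0692). The gene (ENSMUSG00000021318) lies on the plus strand of chromosome 13 at 15463235 to 15730026, and 1.96% of its exonic bases overlap *Gm6556* on the other strand, which had 54 to 116 counts per culture and was itself lower (log2 fold change −0.57, edgeR adjusted p = 0.0086).

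*Smo*, which encodes the membrane protein that Patched restrains, was at 127, 129, 131 and 129 CPM with vehicle and at 122, 120, 119 and 117 CPM with TGF-β1. The groups were close to each other but did not overlap. The mean fell from 129 ± 1.89 to 119 ± 2.21 CPM, a change of −7.66% (log2 fold change −0.11 ± 0.03, SE; 95% interval −0.17 to −0.06; edgeR adjusted p = 0.000303). Of the 16494 genes compared by size, *Smo* ranked 9811. The gene (ENSMUSG00000001761) lies on the plus strand of chromosome 6 at 29735503 to 29761365.

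The 3 co-receptors did not move together. *Boc*, a surface protein of the immunoglobulin superfamily, was at 13.1, 13.8, 13.4 and 13.4 CPM with vehicle and at 7.70, 8.28, 7.77 and 8.34 CPM with TGF-β1, with tight groups far apart. The mean fell from 13.4 ± 0.268 to 8.02 ± 0.333 CPM, a change of −40.3% and the largest fall of the 9 (log2 fold change −0.74 ± 0.07, SE; 95% interval −0.88 to −0.61; edgeR adjusted p = 7.74e-13). The gene (ENSMUSG00000022687) lies on the minus strand of chromosome 16 at 44485049 to 44558897. Its close relative *Cdon* did not pass the test. *Cdon* was at 40.3, 38.3, 39.5 and 42.3 CPM with vehicle and at 42.9, 37.6, 42.3 and 39.7 CPM with TGF-β1, with fully mixed groups (log2 fold change 0.02, 95% interval −0.06 to 0.10; edgeR adjusted p = 0.761). It lies on the plus strand of chromosome 9 at 35421128 to 35507652 (ENSMUSG00000038119).

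*Gas1*, a lipid-anchored surface protein unrelated in structure to the other co-receptors, did not pass the test either. It was at 303, 313, 309 and 314 CPM with vehicle and at 322, 323, 308 and 287 CPM with TGF-β1. The means were equal to 3 digits, 310 ± 4.93 and 310 ± 17.0 CPM, and the TGF-β1 values lay on both sides of the vehicle values (log2 fold change 0.00, 95% interval −0.06 to 0.06; edgeR adjusted p = 0.989). *Gas1* (ENSMUSG00000052957) lies on the minus strand of chromosome 13 at 60174405 to 60177365, and 19.89% of its exonic bases overlap *Gm48488* on the other strand, which had 90 to 145 counts per culture.

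**Figure D2:**
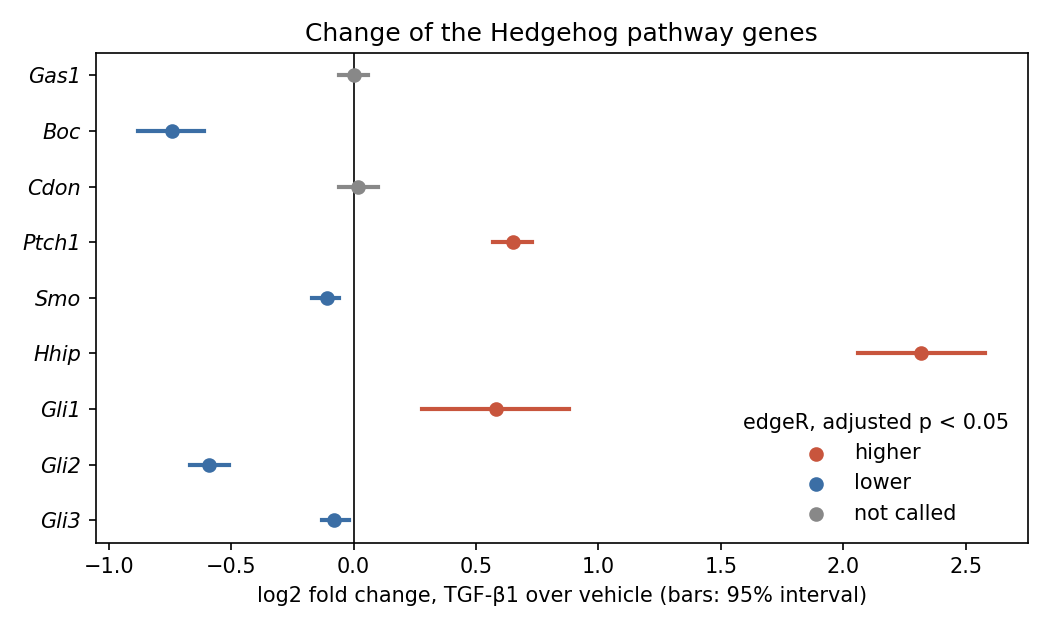
Log2 fold change (TGF-β1 against vehicle) of the 9 genes, ordered from co-receptors at the top to Gli factors at the bottom. Points are the edgeR estimates and lines their 95% intervals. The interval of *Hhip* (2.06 to 2.58) lies apart from all others, and those of *Gas1* and *Cdon* span 0.

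To compare the genes with one another, CPM was divided by the length of a gene's merged exons in kb. With vehicle, *Gas1* was highest at 105 ± 1.66 CPM per kb, followed by *Smo* (23.0 ± 0.336), *Gli3* (14.5 ± 0.259), *Gli2* (8.81 ± 0.503) and *Cdon* (5.20 ± 0.218). Lower levels per kb were those of *Boc* (3.02 ± 0.0602), *Ptch1* (2.02 ± 0.0942), *Gli1* (0.335 ± 0.0600) and *Hhip* (0.135 ± 0.0228). The transducer and the latent Gli factors were thus far above the 3 readouts. With TGF-β1, *Ptch1* (3.18 ± 0.0566 CPM per kb) stood above *Boc* (1.80 ± 0.0748), and *Hhip* (0.676 ± 0.0562) above *Gli1* (0.50 ± 0.0216), so that these pairs changed places. *Gli2* (5.84 ± 0.277) came close to *Cdon* (5.27 ± 0.319), the lowest *Gli2* value lying just above the highest of *Cdon*. In neither group did the 4 values of a gene overlap with those of its neighbours in the order.

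Ratios of 2 genes within a culture hardly depend on the scaling between libraries, which enters only through the added prior count. On the log2 scale of CPM, 8 pairs were compared (prior count 2, exact two-sided permutation test over 35 splits, whose smallest p is 0.0286, adjusted over the 8 pairs). The balance of the Gli factors moved: the log2 ratio of *Gli1* to *Gli2* went from −5.16 ± 0.31 to −3.98 ± 0.04, and that of *Gli2* to *Gli3* from −1.21 ± 0.06 to −1.72 ± 0.07. That of *Gli1* to *Gli3* went from −6.36 ± 0.26 to −5.70 ± 0.04. *Gli1* thus gained on both other factors, while *Gli2* lost ground to *Gli3*. The log2 ratio of *Ptch1* to *Smo*, of the inhibitor to the protein it inhibits, rose by 0.77, from −2.17 ± 0.07 to −1.40 ± 0.04. That of *Ptch1* to *Hhip* fell by 1.65, from 4.52 ± 0.22 to 2.87 ± 0.14. Among the co-receptors, *Gas1* to *Boc* went from 4.52 ± 0.02 to 5.26 ± 0.12 and *Boc* to *Cdon* from −1.57 ± 0.08 to −2.33 ± 0.14. All 7 of these differences reached the smallest possible p (0.0286, exact permutation test; adjusted 0.0327). Each of the 7 pairs holds a member already called in the same cultures, so these tests restate those changes and are not separate evidence. The log2 ratio of *Gas1* to *Cdon* was 2.95 ± 0.06 and 2.93 ± 0.12, and this difference did not pass the test (exact permutation p = 0.771).

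**Figure D3:**
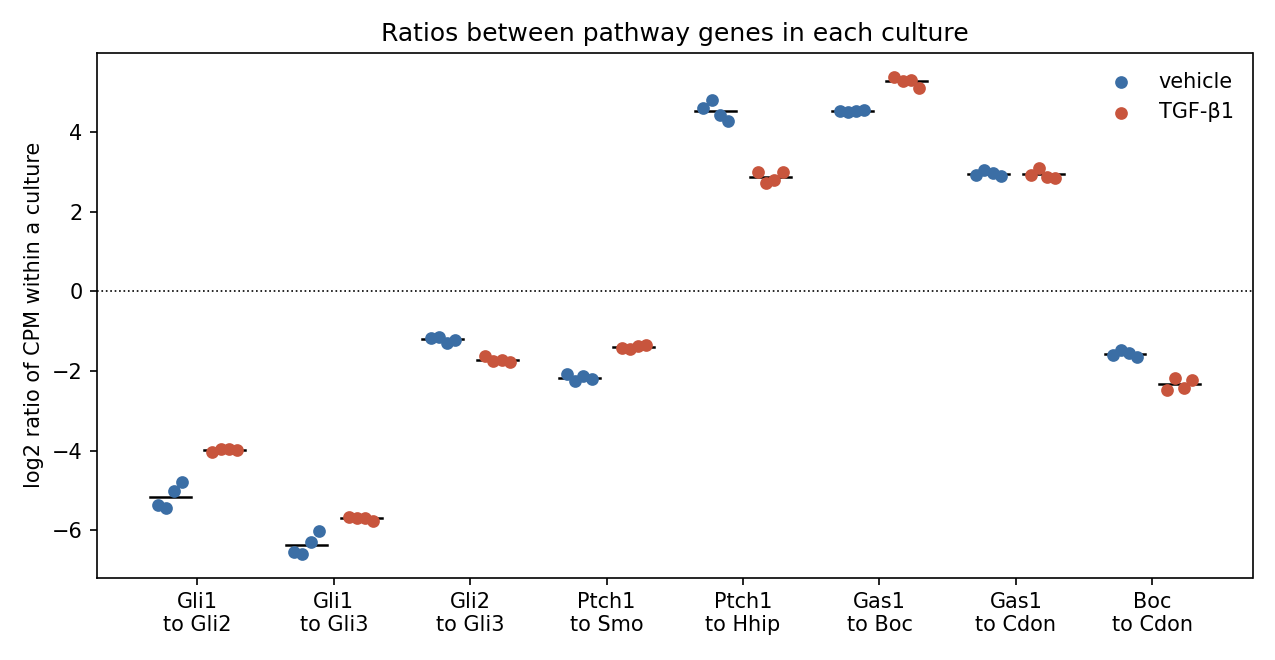
Log2 ratio of the CPM values of 2 Hedgehog pathway genes within a culture, for the 8 pairs compared, with 1 point per culture in the vehicle and TGF-β1 groups. The groups are apart for 7 pairs, whereas *Gas1* to *Cdon* lies near 2.95 in vehicle and 2.93 in TGF-β1 cultures.

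The ligand genes had few counts in these cultures. *Shh* had 0 to 2 and *Ihh* 4 to 19 counts per culture and neither passed the filter. *Dhh* had 5 to 12 counts, and its difference did not pass the test (log2 fold change −0.38, 95% interval −1.25 to 0.49; edgeR adjusted p = 0.524). Of the 15 genes for ligands and their release, 12 were tested, of which 3 were higher, 5 lower and 4 not called, with a median log2 fold change of −0.08. Thus 66.7% of those tested were called, where 41.3% of all genes tested were called. *Scube1*, a secreted protein of a family that helps free the lipid-modified ligand, was at 275 ± 7.54 CPM with vehicle and 106 ± 8.05 CPM with TGF-β1 (log2 fold change −1.38, edgeR adjusted p = 1.82e-11). Its relative *Scube3* fell likewise, from 49.3 ± 1.21 to 27.1 ± 2.58 CPM (−0.87, edgeR adjusted p = 4.01e-18). *Sulf1*, which trims sulfate from heparan chains at the cell surface, rose from 18.1 ± 0.787 to 45.8 ± 2.7 CPM (1.34, edgeR adjusted p = 5.84e-27). *Disp2*, a relative of the ligand exporter Dispatched, rose from 3.74 ± 0.366 to 5.02 ± 0.646 CPM (0.42, edgeR adjusted p = 0.00139).

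All 10 other receptors and surface modulators were tested, of which 4 were higher, 3 lower and 3 not called (median log2 fold change 0.34). That is 70% called, beside 41.3% of all genes tested. The largest changes were in opposite directions in 2 glypicans, heparan sulfate proteins anchored in the membrane. *Gpc3*, known to compete with Patched for ligand, fell from 22.0 ± 0.777 to 4.55 ± 0.263 CPM (log2 fold change −2.27, edgeR adjusted p = 2.93e-29). *Gpc1* rose from 92.6 ± 4.68 to 305 ± 15.3 CPM (1.72, edgeR adjusted p = 2.57e-19). The endocytic receptor gene *Lrp2* rose from 3.39 ± 0.504 to 9.13 ± 0.567 CPM (1.43, edgeR adjusted p = 1.04e-16). *Cdh2*, for N-cadherin, an adhesion protein and not a core pathway component, rose from 186 ± 4.26 to 259 ± 3.06 CPM (0.48, edgeR adjusted p = 5.13e-21). Without TGF-β1 culture 8, the number lower was 1 instead of 3.

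Of 34 intracellular regulators, 11 were higher, 12 lower and 11 not called, with a median of −0.02. The called share was 67.6%, beside 41.3% of all genes tested. *Sufu*, which binds and restrains the Gli proteins, was at 79.7 ± 1.06 CPM with vehicle and 68.1 ± 1.32 CPM with TGF-β1, with no overlap (log2 fold change −0.23 ± 0.03, SE; edgeR adjusted p = 1.64e-08). *Kif7*, the kinesin that organises Gli proteins at the tip of the cilium, was at 13.0 ± 0.599 and 12.8 ± 0.900 CPM and did not pass the test (log2 fold change −0.02, 95% interval −0.15 to 0.11; edgeR adjusted p = 0.803). The largest changes among the regulators were in kinases and an arrestin. *Grk3*, a receptor kinase, fell from 35.9 ± 1.2 to 17.6 ± 1.4 CPM (−1.03, edgeR adjusted p = 8.69e-22). *Arrb1*, for β-arrestin 1, fell by 0.37 on the log2 scale (edgeR adjusted p = 1.39e-13). *Prkacb*, a catalytic subunit of protein kinase A, which marks Gli proteins for cutting, fell from 144 ± 1.12 to 116 ± 2.38 CPM (−0.30, edgeR adjusted p = 1.14e-13). *Dyrk2*, a kinase described to act on Gli2, rose from 41.1 ± 1.55 to 59.1 ± 1.05 CPM (0.52, edgeR adjusted p = 8.12e-17).

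Transport in the primary cilium, the organelle in which Smoothened acts, was represented by 32 genes, of which 16 were lower, 2 higher and 14 not called. Of the list 50% was thus lower and 56.2% called, where 20.3% of all genes tested were lower and 41.3% called. These shares were not matched for level either. The changes were small, with log2 fold changes between −0.52 and 0.17 and a median of −0.13. The largest were in *Dync2h1* and *Dync2li1*, subunits of the dynein that carries cargo back from the tip of the cilium, and in *Bbs1* and *Bbs4*, subunits of the BBSome coat. *Dync2h1* fell from 128 ± 5.81 to 89.3 ± 1.29 CPM (log2 fold change −0.52, edgeR adjusted p = 2.07e-19) and *Dync2li1* from 28.1 ± 0.933 to 21.7 ± 0.193 CPM (−0.37, edgeR adjusted p = 3.18e-09). *Bbs1* fell by 0.42 and *Bbs4* by 0.35 on the log2 scale (edgeR adjusted p = 4.96e-08 and 1.24e-05).

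Of 16 genes described as Hedgehog targets in other tissues, 14 were tested, of which 4 were higher, 5 lower and 5 not called (median log2 fold change −0.04). Of those tested 64.3% were called, where 41.3% of all genes tested were called. The genes of this list were divided between the directions. The transcription factor genes *Osr1* (69.2 ± 1.17 to 40.5 ± 1.08 CPM, log2 fold change −0.77, edgeR adjusted p = 2.26e-23) and *Foxc2* (104 ± 3.33 to 61.1 ± 4.2 CPM, −0.77, edgeR adjusted p = 5.57e-18) fell. The forkhead gene *Foxf2* (18.0 ± 0.839 to 26.3 ± 0.968 CPM, log2 fold change 0.54, edgeR adjusted p = 1.18e-12) and *Ccne1*, for cyclin E1 (23.3 ± 0.932 to 32.6 ± 1.25 CPM, 0.48, edgeR adjusted p = 2.54e-12), rose.

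**Figure D4:**
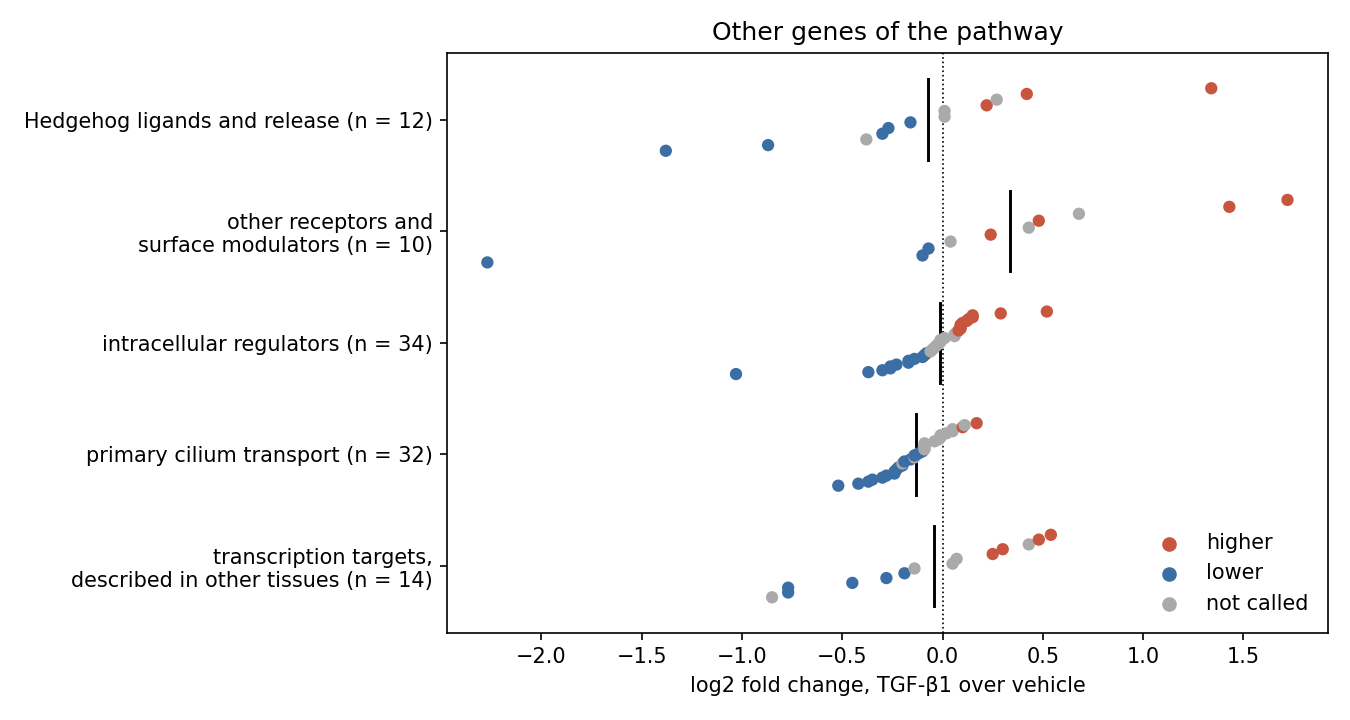
Genes higher, lower and not called (edgeR adjusted p under 0.05, TGF-β1 against vehicle) in the 5 lists of other pathway genes. The cilium list holds 16 lower and 2 higher genes, and the other lists are divided more evenly.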

How the data were processed

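Bulk RNA-seq libraries (RNA extracted with a Maxwell RSC simplyRNA kit, Illumina stranded total RNA preparation) of 8 mouse brain pericyte cultures were analysed. The deposited values are unnormalised counts per gene, 1 library per culture. The authors aligned reads to mm10 with STAR 2.7.5c in 2-pass mode, took out duplicate reads with SAMtools 1.15 and assigned the rest to genes with featureCounts 2.0.3. The annotation release, the strand setting and the treatment of reads shared between genes are not given in the sources used here, so reads of overlapping genes may be mixed.

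Symbols, positions and exon lengths came from GENCODE M21 (GRCm38, the assembly that mm10 names), and promoter windows from RefSeq. Counts were tested with edgeR 4.0.16 in R 4.3.3 (filterByExpr, TMM factors, robust dispersion, quasi-likelihood test, Benjamini-Hochberg adjustment over 22544 genes, threshold 0.05). The SE of a log2 fold change was taken as |log2 fold change| over the root of the F statistic. CPM were scaled by library total and TMM factor. Depth puts 3 counts at 0.0631 to 0.0658 CPM. Of counts from 1 to 20, 68.5 to 70.2% were even, so both mates of a pair may have been counted and the independent fragments may be fewer.

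The members, lists and tests were chosen with earlier results of these data known. Named are all members, *Shh*, *Ihh*, *Dhh*, *Sufu* and *Kif7*, up to 4 genes per list with the largest called log2 fold change and a mean of at least 1 CPM, and the 5 genes most like *Gli1*. Some genes that fall under this rule are not reported here. *Gli2*'s promoter was added after its values were seen. Whether the cultures come from separate animals is not in the labels, so p-values measure the spread between cultures. Replicate libraries of a group had a chi-square per degree of freedom of 2.25 to 3.93 on the counts as given. If both mates of a pair were counted, sampling noise alone raises this value. How much of it is spread beyond sampling noise was not computed. Alternatives were DESeq2 1.42.0, other scalings and filters, counts per fragment, another prior count and leaving out each culture. The code was tested on simulated data.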

Additional observations from a re-analysis of the deposited data

Results flagged for a closer look

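Among 68 groups of 4 values of the genes named in the report, 2 held 1 culture that stood apart, and about 3.4 (1 in 20) would do so by chance. *Ptch1* was at 43.9 CPM in TGF-β1 culture 6, with the nearest of the others at 45.3 CPM. All 4 values were above every vehicle value. *Prkacb* was at 145 CPM in vehicle culture 1, with the nearest of the others at 143 CPM.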

How the results depend on the processing

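The calls and directions of *Gli1* (log2 fold change 0.51 to 0.70), *Gli2* (−0.62 to −0.56), *Ptch1* (0.63 to 0.68), *Smo* (−0.13 to −0.10), *Hhip* (2.22 to 2.39) and *Boc* (−0.76 to −0.73) held under all 15 alternatives. *Gli3* lost its call in 4 of them, each without 1 culture (log2 fold changes −0.07 to −0.06), so that 3 or 4 members were lower when cultures were left out. *Gas1*, never called and at most 0.04 when a culture was left out, had a negative sign with library totals, upper-quartile factors or at least 1 count in any culture (−0.01 each), without vehicle culture 1 or TGF-β1 culture 7 (−0.00) and without TGF-β1 culture 5 or 6 (−0.02). *Cdon*, never called, ranged from −0.01 (without TGF-β1 culture 5 or 7) to 0.05 when a culture was left out, and *Kif7* at 0.01 without TGF-β1 culture 7. The number of other receptors and surface modulators called lower ranged from 1 (without TGF-β1 culture 8) to 3 when cultures were left out. The cause was not tested. A prior count of 0.5 changed no call of a ratio. Over all genes, 8559 to 9311 were called. No paired analysis was possible because the labels number the vehicle cultures 1 to 4 and the TGF-β1 cultures 5 to 8, so the groups share no numbers. If cultures of both groups share an isolate, as the study's methods read, the errors and p-values given here leave that sharing out. At 64 to 121 counts, *Gli1* was the member with the widest interval.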

Other observations

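The genes whose log2 CPM followed *Gli1* most closely over the 8 cultures, among 16493 other genes tested with a mean of at least 1 CPM, were *Mt2* (a metallothionein, Pearson r = 0.9932), *Pold4* (a subunit of DNA polymerase delta, 0.9896), *Elavl1* (an RNA-binding protein, 0.9876), *Fzd6* (a Frizzled receptor, 0.9841) and *Pla2g15* (a lysosomal phospholipase, 0.9834). Their log2 fold changes were 0.61, 0.32, 0.11, 0.25 and 0.28. The correlation spans both treatment groups, so it holds the difference between them as well as the spread within them, and it is given as a description with no p.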
